A study of Homo sapiens with 6 samples.

Results

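The heat shock and chaperone genes examined here are the members of the HSPA, HSPB, HSPD, HSPE, HSPH, HSP90A, DNAJ and CCT families, with HSF1, BAG3 and STIP1, on an array comparison of HCT116 cells. They were taken by gene symbol from the probe sets annotated to exactly 1 gene, with 5 chaperones of the endoplasmic reticulum (HSPA5, DNAJB9, DNAJB11, DNAJC3 and DNAJC10) left out, and each gene was read by its brightest probe set over all 6 arrays. That gave 61 genes of the 11963 on the array, read by 96 probe sets. HCT116 is a long-established line of human colon cancer cells. The cells with the NFX1-91 hairpin carried a lentiviral vector, FUGW, that stably expresses an shRNA against NFX1-91 (3 arrays), and the control cells carried the same kind of vector with an shRNA against β-galactosidase, a bacterial enzyme (3 arrays). Both groups therefore carried a vector and a hairpin, each group is known from 1 hairpin, and the labels do not say whether cells were cloned or pooled. NFX1-91 is a splice form of the zinc finger protein NFX1. The label of the gene set names the cytosol, but by textbook knowledge HSPD1, HSPE1, HSPA9, DNAJA3 and DNAJC15 act in mitochondria and DNAJC1, DNAJB12 and DNAJB14 sit in the membrane of the endoplasmic reticulum, so the set is called chaperone genes here.

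Chaperones hold unfolded proteins and help them reach their native shape. HSP70 proteins bind and release stretches of unfolded chain in a cycle driven by ATP, J proteins (the DNAJ genes) deliver the client and trigger ATP hydrolysis, and nucleotide exchange factors end the cycle. Clients such as kinases and receptors pass on to HSP90, while tubulin and actin fold inside the barrel of the TRiC chaperonin, built from TCP1 and the CCT subunits. The transcription factor HSF1 raises many of these genes under proteotoxic stress by binding heat shock elements, inverted repeats of the bases GAA, and tumour cells often depend on it.

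Signals are in scaled units with an array mean of 500, and log2 fold changes are on the scale log2(signal + 16), which understates changes of dim genes. Changes were called by limma at a Benjamini-Hochberg adjusted p under 0.05 over all 11963 genes, and every adjusted p below comes from that fit unless it is said to be over probe sets. By that rule 12 of the 61 chaperone genes were higher and 10 lower in cells with the NFX1-91 hairpin, and 39 did not pass. These counts go by each gene's brightest probe set, and for DNAJA1 (counted higher) and HSPA13 (counted lower) another probe set was called the opposite way. The 22 called members are 36.1% of the set, against 32.5% of all genes tested. The higher members are 19.7% of the set against 14.7% of all genes. The lower ones are 16.4% against 17.8%, so the shares lie near the background. The same shares of all genes, 14.7% higher and 17.8% lower, are the background for every count of a family or partner list below. In such bulk RNA a change in some cells and a change of level in every cell cannot be told apart. The arrays of the groups did not overlap for 31 members, or 50.8%, against 43.5% of all genes. The median log2 fold change of all 61 members was -0.01, with a range of -1.33 to 0.79. Over all genes the median was 0.00 (0.00364727 before rounding). Only 5 called members changed at least 1.5-fold, namely HSPA4L and DNAJB6 upward and DNAJC22, DNAJB2 and DNAJC28 downward.

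**Figure D1:**
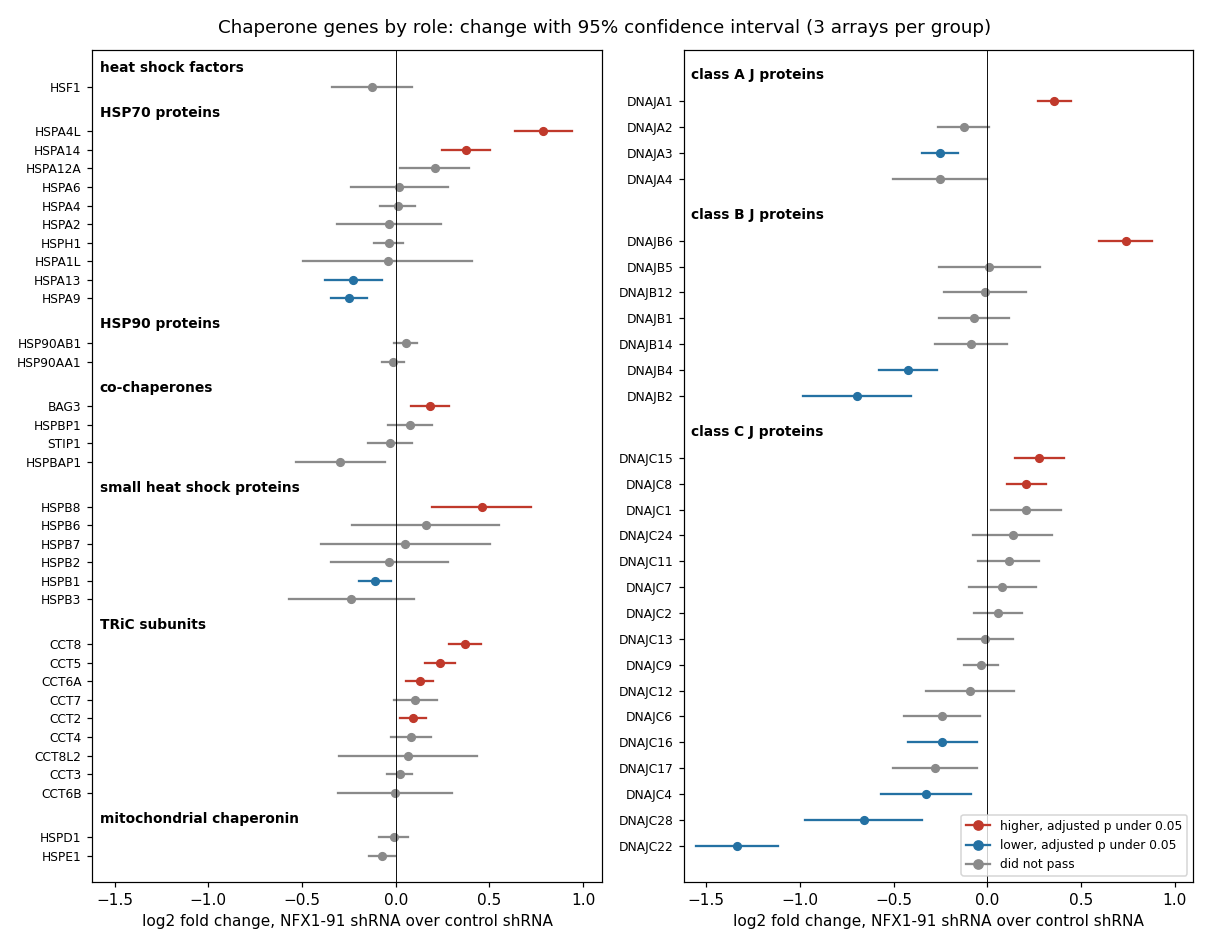
Log2 fold change of each of the 61 chaperone genes, NFX1-91 shRNA over control shRNA (x axis), by role (y axis). Points are estimates, bars are 95% confidence intervals from limma, and colours mark the 12 higher, 10 lower and 39 genes that did not pass. Most intervals lie within 0.5 of no change, DNAJC22 stands lowest at -1.33, and HSPA4L highest at 0.79.

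Correlation between arrays was 0.992 to 0.995 within groups and 0.983 to 0.985 between groups. The NFX1 transcript, the hairpin's target, was read by 3 probe sets that may detect more than 1 splice form. The brightest had signals of 124, 139 and 138 in NFX1-91 shRNA arrays, against 159, 144 and 139 in control arrays (log2 fold change -0.13, adjusted p = 0.362), and the groups overlapped. The dimmest had 8.87, 8.83 and 4.56, against 16.8, 17.7 and 24.4 in control arrays (-0.60, adjusted p = 0.0137 over probe sets). Between these lay 78.5, 81.0 and 69.3 in NFX1-91 shRNA arrays and 81.7, 90.2 and 70.1 in control arrays for the third. Its groups overlapped, and its adjusted p was 0.775 over probe sets. All 7 epithelial markers fixed for HCT116 were above the median brightness, with sums of 29062 to 29182 in NFX1-91 shRNA arrays and 25232 to 26011 in control arrays, 2 of them higher and 4 lower. By limma 0 of 6 fibroblast, 0 of 4 blood and 0 of 4 embryonic kidney markers were called, and likewise 0 at an unadjusted p under 0.05. Of these, 5, 4 and 3 lay below the median brightness, and no marker was at 0. Their sums ran from 282 to 333, from 81.7 to 104 and from 302 to 351 in NFX1-91 shRNA arrays, against 249 to 335, 83.4 to 99.8 and 324 to 357 in control arrays. Their part in the chaperone values was not tested. The labels do not state whether the arrays within a group stand for separate cultures. The p-values therefore reflect only array-to-array spread, possibly technical, and the number of arrays limits the precision.

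The promoters shown next hold a match in letters to the heat shock element, the sequence that HSF1 binds. They are given because the set holds both HSF1 and many of its textbook targets. A window from 250 bases before to 50 after the start of transcription, from RefSeq on GRCh38.p14, was found for 54 of the 61 members (74 windows). A longer motif of 3 alternating units of a heat shock element was searched on both strands, namely GAA, TTC and GAA with 2 free bases (NN) between neighbours, or its reverse complement. It was present in 6 of the members' 74 windows (8.11%), 1 in each of 6 members, against 0.49% of all 35116 windows of that length. Of these 6, DNAJB6 rose, HSP90AA1, HSP90AB1, HSPD1 and HSPA6 did not pass, and the probe sets of DNAJA1 were called in opposite directions. The shorter form of 2 units, GAANNTTC or TTCNNGAA, which every match of the longer motif contains, was found in 23 of the 74 windows (31.1%), against 13.5% of all windows. These belong to 22 members, of which by brightest probe set 6 were called higher, 3 lower and 13 did not pass. A match is a description of the letters and not a shown binding site. The 250 bases before the start are given for DNAJB6, which rose, and for the HSP90 genes and HSPD1, which did not pass, with each match of the longer motif in capitals. The match of DNAJA1 lies just after its start and that of HSPA6 lies 74 bases before its start. The windows are chr7:157336754-157337003 on the plus strand for DNAJB6, chr14:102087045-102087294 on the minus strand for HSP90AA1, chr6:44247693-44247942 on the plus strand for HSP90AB1 and chr2:197499841-197500090 on the minus strand for HSPD1.
DNAJB6: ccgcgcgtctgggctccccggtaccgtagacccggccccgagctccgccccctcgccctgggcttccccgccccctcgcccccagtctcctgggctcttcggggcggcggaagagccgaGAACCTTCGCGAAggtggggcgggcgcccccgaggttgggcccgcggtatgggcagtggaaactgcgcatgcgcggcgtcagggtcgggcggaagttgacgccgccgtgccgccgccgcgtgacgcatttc
HSP90AA1: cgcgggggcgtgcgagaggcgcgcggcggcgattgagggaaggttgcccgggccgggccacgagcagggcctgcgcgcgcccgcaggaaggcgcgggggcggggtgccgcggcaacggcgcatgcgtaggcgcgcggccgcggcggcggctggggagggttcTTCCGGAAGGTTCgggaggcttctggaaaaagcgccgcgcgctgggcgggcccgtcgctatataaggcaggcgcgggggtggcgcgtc
HSP90AB1: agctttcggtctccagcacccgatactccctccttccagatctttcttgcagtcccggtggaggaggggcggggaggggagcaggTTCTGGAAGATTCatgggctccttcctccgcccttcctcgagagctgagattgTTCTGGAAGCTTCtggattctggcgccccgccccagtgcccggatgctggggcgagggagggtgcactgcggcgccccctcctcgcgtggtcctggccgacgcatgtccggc
HSPD1: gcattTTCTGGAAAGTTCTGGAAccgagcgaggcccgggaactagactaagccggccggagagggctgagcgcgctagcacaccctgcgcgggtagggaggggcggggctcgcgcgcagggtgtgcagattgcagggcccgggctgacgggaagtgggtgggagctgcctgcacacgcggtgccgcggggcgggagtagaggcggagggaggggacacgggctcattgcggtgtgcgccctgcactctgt
The match begins 131 bases before the start in DNAJB6 and 88 bases before it in HSP90AA1. HSP90AB1 holds 2 separate matches, at 165 and 112 bases. HSPD1 holds 2 that overlap in a run of units beginning 245 bases before the start.

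HSF1, the main regulator of the heat shock response, did not pass. It had signals of 530, 501 and 671 in NFX1-91 shRNA arrays, against 622, 624 and 605 in control arrays. One NFX1-91 shRNA array lay above all control arrays and the other two below them. This gave a log2 fold change of -0.13 with an SE of 0.0953 (adjusted p = 0.364). Without NFX1-91 shRNA replicate 3 it was -0.25 and passed (adjusted p = 0.0123). With array weights, which keep every array, it was -0.22 and also passed as lower (adjusted p = 0.0425). HSF1's second, dimmer probe set had a log2 fold change of 0.03 (adjusted p = 0.949 over probe sets).

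The cytosolic HSP90 genes did not pass. HSP90AA1, the stress-inducible form, had signals of 9401, 9425 and 9302 in NFX1-91 shRNA arrays, against 9675, 9423 and 9326 in control arrays. Its 95% confidence interval ran from -0.07 to 0.04 on the log2 scale (adjusted p = 0.735), and the groups overlapped. HSP90AB1, the constitutive form, had 9805, 9544 and 9560 in NFX1-91 shRNA arrays, against 9460, 9195 and 9195 in control arrays, with an interval of -0.01 to 0.11 (adjusted p = 0.17). Its groups did not overlap, but the difference did not pass. The other 3 probe sets of HSP90AA1 had log2 fold changes from -0.04 to -0.01, and none of these, nor the other one of HSP90AB1, passed.

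Of the 10 HSP70 and HSP110 genes, 2 were called higher by their brightest probe set, 2 lower and 6 did not pass. Over all genes the shares were 14.7% higher and 17.8% lower. HSPA13, 1 of the 2 lower calls, had another probe set called higher. HSPA4L, an HSP110 protein that acts as a nucleotide exchange factor for HSP70, rose most of all members. Its signals were 645, 641 and 679 in NFX1-91 shRNA arrays, against 356, 357 and 407 in control arrays, and the groups lay far apart. HSPA4L thus had a log2 fold change of 0.79 (SE 0.0678, 1.73-fold, adjusted p = 2.13e-05). The related HSP110 genes did not pass: HSPH1 had 3533, 3358 and 3386 in NFX1-91 shRNA arrays, against 3573, 3500 and 3482 in control arrays (-0.04, interval -0.12 to 0.04, adjusted p = 0.462), and HSPA4 had a log2 fold change of 0.01 (adjusted p = 0.902). The groups of HSPH1 overlapped. HSPA14, an HSP70 relative that works at the ribosome with the J protein DNAJC2, had 850, 942 and 953 in NFX1-91 shRNA arrays, against 706, 717 and 680 in control arrays (0.37, SE 0.0578, adjusted p = 0.000756). Every NFX1-91 shRNA array was above every control array. DNAJC2 itself had a log2 fold change of 0.06 (adjusted p = 0.5).

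HSPA13, an HSP70-like protein of microsomes, had a log2 fold change of -0.23 (adjusted p = 0.0272) by its brightest probe set, but its probe sets disagreed. The brighter had signals of 521, 532 and 600 in NFX1-91 shRNA arrays, against 669, 614 and 657 in control arrays. The dimmer had 544, 596 and 625, against 391, 410 and 432 in control arrays, a log2 fold change of 0.50 (adjusted p = 0.00102 over probe sets). The call also ended in 8 of the 18 alternative fits, among them those without NFX1-91 shRNA replicate 1 or 2 and without control replicate 1 or 3 (adjusted p = 0.0679 to 0.118), so no direction can be given for HSPA13. HSPA2, HSPA6, HSPA1L and HSPA12A had log2 fold changes from -0.04 to 0.21 and did not pass. The groups of HSPA12A did not overlap. It passed as higher under quantile normalization (0.26, adjusted p = 0.0411) and with array weights (0.22, adjusted p = 0.0214). HSPA6 and HSPA1L have close relatives in sequence, so their probe sets may read more than 1 gene. HSPA8, HSPA1A, HSPA1B and TCP1 were read here only by probe sets annotated to several genes and are not members, and HSF2 was not analysed here.

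The mitochondrial HSP70 and its helpers DNAJA3 and GRPEL1 were lower, while a further helper, DNAJC15, was higher. HSPA9, or mortalin, pulls proteins into the matrix and folds them there. Its brightest probe set had signals of 3596, 3441 and 3285 in NFX1-91 shRNA arrays, against 3942, 4104 and 4219 in control arrays, with no overlap (log2 fold change -0.25, SE 0.0425, adjusted p = 0.00145). The second had 2597, 2558 and 2369 in NFX1-91 shRNA arrays, against 3381, 3537 and 3220 in control arrays (-0.43, adjusted p = 0.000326 over probe sets). The dimmest had 246, 259 and 303, against 428, 389 and 409 in control arrays (-0.58, adjusted p = 0.00145 over probe sets). Thus all 3 probe sets fell, by differing amounts. DNAJA3, the mitochondrial J protein also called Tid1, had 981, 981 and 971 in NFX1-91 shRNA arrays, against 1198, 1155 and 1148 in control arrays (-0.25, SE 0.043, adjusted p = 0.00143). GRPEL1, the nucleotide exchange factor of HSPA9 and not a member, had 735, 728 and 742 in NFX1-91 shRNA arrays, against 1726, 1693 and 1551 in control arrays (-1.15, SE 0.0511, adjusted p = 5.44e-07). The NFX1-91 shRNA arrays of both genes lay in a narrow band below every control array. DNAJC15, a J protein of the inner mitochondrial membrane that stimulates HSPA9 at the import channel, had 734, 777 and 814 in NFX1-91 shRNA arrays, against 659, 645 and 604 in control arrays (0.28, SE 0.0591, adjusted p = 0.00501). The calls of HSPA9, DNAJA3 and DNAJC15 held in each of the 18 alternative fits.

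The mitochondrial chaperonin, a barrel of HSPD1 capped by HSPE1, did not pass. HSPD1 had 11369, 10674 and 10672 in NFX1-91 shRNA arrays, against 11330, 10956 and 10695 in control arrays (log2 fold change -0.01, interval -0.09 to 0.07, adjusted p = 0.845). HSPE1 had 6421, 6364 and 6539, against 6917, 6854 and 6555 in control arrays (-0.07, adjusted p = 0.112). The HSPD1 groups overlapped and those of HSPE1 did not, by a narrow margin. HSPE1 passed as lower under quantile normalization (-0.11, adjusted p = 0.0133) and with array weights (-0.08, adjusted p = 0.0284). Among 8 measured partners in mitochondrial folding and proteolysis 1 was higher and 2 lower. The disaggregase CLPB rose by 0.71 (adjusted p = 7.3e-05), and besides GRPEL1 the protease HTRA2 fell by 0.40 (adjusted p = 0.00179).

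**Figure D2:**
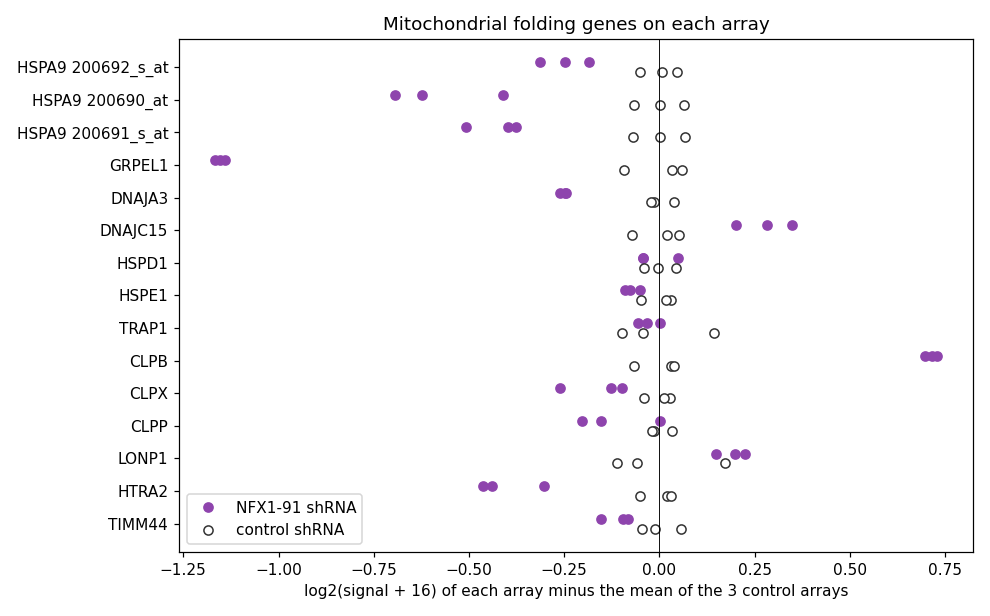
Each array's log2(signal + 16) minus the mean of the 3 control arrays (x axis) for mitochondrial folding genes (y axis), with filled points for NFX1-91 shRNA and open points for control shRNA. All 3 probe sets of HSPA9, GRPEL1 and DNAJA3 lie left of their controls, DNAJC15 and CLPB lie right of them, and HSPD1 overlaps its controls.

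Of the 9 CCT genes among the members, which include the dim CCT6B and CCT8L2, 4 were called higher, against 14.7% of all genes. Lower calls numbered 0, and 3 of the 4 higher calls were lost in some alternative. TCP1, a further subunit of TRiC, was read only by 3 probe sets that also list SNORA29. Of these, 2 were lower (log2 fold changes of -0.44 and -0.33) and the brightest did not pass (0.06). The 0 lower calls among the CCT genes came from limma, in which 0 were also lower at an unadjusted p under 0.05. CCT8 had signals of 5991, 5986 and 6163 in NFX1-91 shRNA arrays, against 4920, 4501 and 4611 in control arrays (log2 fold change 0.37, SE 0.038, adjusted p = 6.02e-05). CCT5 had 6015, 5791 and 5954 in NFX1-91 shRNA arrays, against 5227, 4967 and 4864 in control arrays (0.24, SE 0.0354, adjusted p = 0.000611). In both subunits every NFX1-91 shRNA array was above every control array. CCT6A rose by 0.13 (adjusted p = 0.0125) and CCT2 by 0.09 (adjusted p = 0.0483). CCT3, CCT4 and CCT7 had log2 fold changes of 0.02, 0.08 and 0.10 and did not pass, nor did CCT6B, a testis form, or CCT8L2, both of which were dim (adjusted p = 0.989 and 0.816). The call of CCT5 held in every alternative, while the omission of shared probe sets ended those of CCT8 (0.22, adjusted p = 0.348) and CCT6A (0.10, adjusted p = 0.107). CCT2 kept its probe set and its fold in that setting, and its adjusted p was 0.0511. CCT6A also lost its call without a variance trend (adjusted p = 0.139) and without NFX1-91 shRNA replicate 2 (0.0515) or control replicate 2 (0.0625). The call of CCT2 held in only 6 of the 18 alternative fits. It ended without any array but NFX1-91 shRNA replicate 2 (0.0639 to 0.175). Further losses of CCT2 were under quantile normalization (0.04, adjusted p = 0.271), without a variance trend (0.296) and with array weights (0.0862). CCT4 gained a call without control replicate 1 (0.14, adjusted p = 0.00579) and CCT7 without NFX1-91 shRNA replicate 3 (0.16, adjusted p = 0.0149). Both also passed as higher with array weights (adjusted p = 0.03001 for CCT4 and 0.01465 for CCT7). CCT8, once its shared probe set was omitted, was read by a probe set with signals of only 8.36 to 21.3. CCT2's dimmer probe set rose by 0.22 (adjusted p = 0.00462 over probe sets).

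Around TRiC, prefoldin hands over unfolded tubulin and actin, and tubulin cofactors assemble the dimer afterwards. Of 11 measured genes of that kind 3 were higher and 3 lower. The cofactor TBCB, which binds alpha-tubulin, fell most, with 469, 475 and 582 in NFX1-91 shRNA arrays, against 1130, 1135 and 1172 in control arrays (log2 fold change -1.15, adjusted p = 6e-06). The prefoldin subunit PFDN1 rose by 0.28 (adjusted p = 0.00212) and PDCL, a phosducin-like co-chaperone of TRiC, fell by 0.36 (adjusted p = 0.0178). The call of PDCL ended in 5 alternatives, among them those without NFX1-91 shRNA replicate 2 (adjusted p = 0.0522) and without control replicate 2 (0.0822) or 3 (0.0517).

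Of the 27 J proteins 4 were called higher by their brightest probe set, 7 lower and 16 did not pass. Over all genes 14.7% were higher and 17.8% lower. The median log2 fold change of the J proteins was -0.07. The 4 called higher include DNAJA1, which had another probe set called lower. In class A, whose members resemble bacterial DnaJ throughout, DNAJA1, a farnesylated partner of HSP70 in the cytosol, was read in opposite directions by its probe sets. The brighter, a shared probe set, had 6028, 5607 and 5882 in NFX1-91 shRNA arrays, against 4750, 4423 and 4485 in control arrays (log2 fold change 0.36, SE 0.0396, adjusted p = 9.24e-05). The other had 1911, 2012 and 2048, against 2392, 2502 and 2200 in control arrays (-0.25, adjusted p = 0.00964 over probe sets). No direction can be given for the DNAJA1 transcript as a whole. DNAJA2 and DNAJA4 had log2 fold changes of -0.13 and -0.25 and did not pass, though DNAJA2 did without control replicate 1 (-0.20, adjusted p = 0.00829). With array weights DNAJA2 also passed as lower (-0.14, adjusted p = 0.0308). DNAJA4 passed as lower without a variance trend (the same fold, adjusted p = 0.0488).

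Class B held the largest rise among J proteins and 2 falls. DNAJB6, a potent suppressor of polyglutamine aggregation, had 721, 790 and 830 in NFX1-91 shRNA arrays, against 465, 452 and 464 in control arrays (log2 fold change 0.74, SE 0.0626, adjusted p = 1.9e-05). DNAJB2, a J protein best known from neurons that sorts clients to the proteasome, had 59.9, 75.5 and 88.1 in NFX1-91 shRNA arrays, against 122, 132 and 135 in control arrays (-0.70, SE 0.129, adjusted p = 0.00229). DNAJB4, which is close to DNAJB1 in sequence, had 319, 360 and 354 in NFX1-91 shRNA arrays, against 445, 481 and 476 in control arrays (-0.43, SE 0.0694, adjusted p = 0.00108). None of these groups overlapped, and the 3 calls held in every alternative. DNAJB4's dimmer probe set had a value of -0.14 and did not pass. DNAJB1, the main stress-inducible J protein and a textbook HSF1 target, had 2229, 2112 and 1749 in NFX1-91 shRNA arrays, against 1985, 2239 and 2146 in control arrays. Its groups overlapped, and the interval ran from -0.26 to 0.12 (adjusted p = 0.587). DNAJB5, DNAJB12 and DNAJB14 lay between -0.09 and 0.01 and did not pass.

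**Figure D3:**
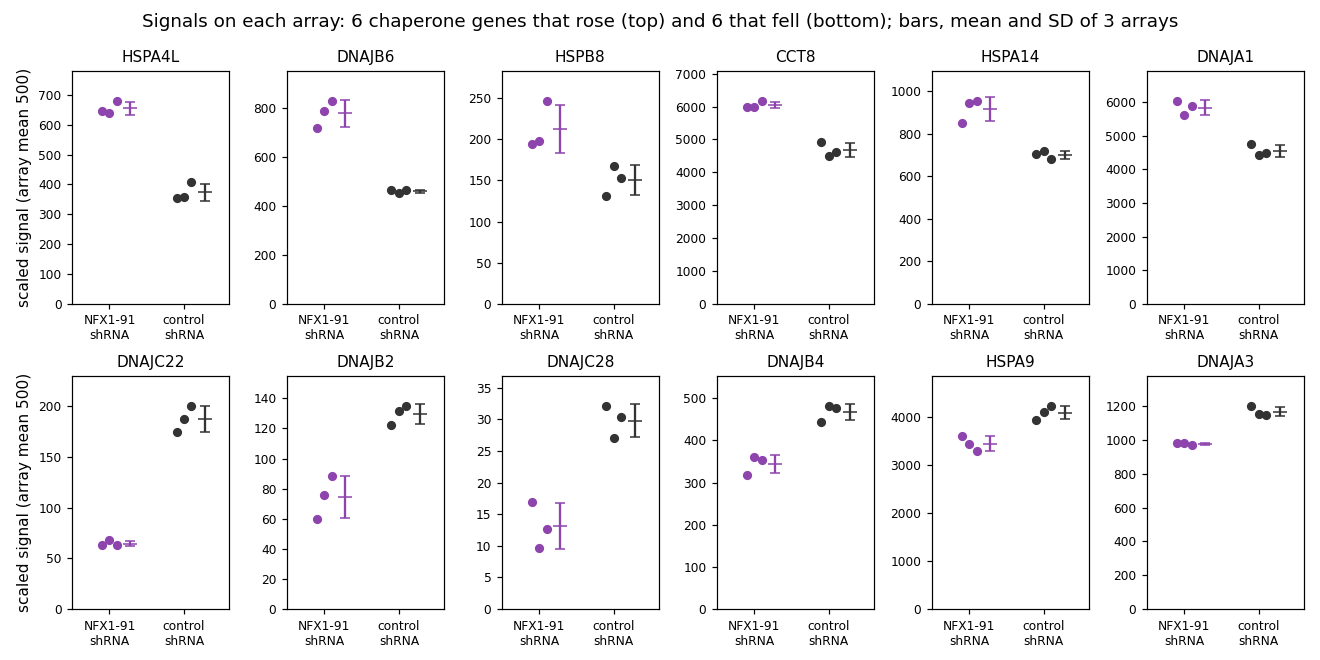
Scaled signal (y axis, from 0) on each of the 3 NFX1-91 shRNA arrays and the 3 control shRNA arrays for the brightest probe sets of 6 genes called higher (top row) and 6 called lower (bottom row). Dots are arrays, and bars give mean and SD. In each panel the groups do not overlap, and another probe set of DNAJA1, not drawn, fell. DNAJC22 averaged 64.5 in NFX1-91 shRNA arrays and 187 in control arrays.

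Class C is the most varied class, in which only the J domain is shared. Of its 16 members 2 rose and 4 fell, against 14.7% and 17.8% of all genes. DNAJC22, a membrane J protein whose fly relative Wurst acts in endocytosis, fell most of the whole set. It had 62.9, 67.6 and 63.0 in NFX1-91 shRNA arrays, against 174, 187 and 200 in control arrays (log2 fold change -1.33, SE 0.0976, 2.52-fold, adjusted p = 8.8e-06). DNAJC28 was dim, with 16.9, 9.69 and 12.6 in NFX1-91 shRNA arrays, against 32.0, 27.0 and 30.3 in control arrays (-0.66, SE 0.139, adjusted p = 0.00474). Both genes were lower on each NFX1-91 shRNA array than on any control array. The values of DNAJC28 lie around the offset of 16, and its log2 fold change ran from -0.28 with an offset of 64 to -1.22 with none. Its size, and so its place among the members changed at least 1.5-fold, depends on the offset, while its call held. DNAJB2 likewise had a log2 fold change of -0.49 with an offset of 64, below 1.5-fold. DNAJC4 had 138, 139 and 129 in NFX1-91 shRNA arrays, against 151, 175 and 197 in control arrays (-0.33, SE 0.106, adjusted p = 0.0392). DNAJC16 had 137, 146 and 144, against 172, 169 and 172 in control arrays (-0.24, SE 0.0819, adjusted p = 0.0486). Both genes lay just inside the threshold, and each lost its call in 10 of the 18 alternative fits. DNAJC16 lost it without any of the 6 arrays (adjusted p = 0.0729 to 0.118) and DNAJC4 without any but control replicate 1 (0.0747 to 0.146). DNAJC8, a J protein found with splicing factors, rose by 0.21 (adjusted p = 0.0071), and its second brightest probe set rose by 0.31 (adjusted p = 0.0024 over probe sets). The call of DNAJC8 ended without a variance trend (adjusted p = 0.0557) and on its dimmest probe set, used when shared ones were omitted (0.24, adjusted p = 0.195). The remaining 10 had log2 fold changes from -0.28 (DNAJC17) to 0.21 (DNAJC1). DNAJC17 and DNAJC6 passed without NFX1-91 shRNA replicate 3 (adjusted p = 0.04 and 0.0278), and DNAJC1 without control replicate 1 (0.0211). With array weights DNAJC17, DNAJC6 and DNAJC1 also passed (adjusted p = 0.00737, 0.0325 and 0.0258). The remaining 10 include DNAJC6, or auxilin, which uncoats clathrin vesicles, at -0.24 (adjusted p = 0.0717). Also among the 10 are the histone chaperone DNAJC9 at -0.03 and the HSP70 and HSP90 linker DNAJC7 at 0.08.

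Small heat shock proteins hold unfolding clients without ATP, and of 6 measured 1 rose, 1 fell and 4 did not pass. HSPB8, which with BAG3 routes clients to autophagy, had 194, 198 and 247 in NFX1-91 shRNA arrays, against 131, 168 and 153 in control arrays (log2 fold change 0.46, SE 0.118, adjusted p = 0.0135). Its partner BAG3 had 2391, 2221 and 2204, against 1975, 2068 and 1954 in control arrays (0.18, SE 0.0447, adjusted p = 0.0106). Both partners were higher on every NFX1-91 shRNA array, and BAG3 lost its call without a variance trend (adjusted p = 0.0783). HSPB1, or HSP27, had 3775, 3842 and 3972 in NFX1-91 shRNA arrays, against 4351, 4068 and 4104 in control arrays. Its fall of 0.11 on the log2 scale (adjusted p = 0.0483) ended in 12 of the 18 alternative fits, among them all 6 that leave out 1 array (adjusted p = 0.0507 to 0.149). HSPB2, HSPB3, HSPB6 and HSPB7, which are known from muscle, had means of 2.05 to 13.7 in NFX1-91 shRNA arrays and 2.44 to 18.9 in control arrays, close to or below the offset of 16, and their groups overlapped.

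STIP1, or HOP, links HSP70 to HSP90. It had 2669, 2938 and 2628 in NFX1-91 shRNA arrays, against 2702, 2950 and 2761 in control arrays (log2 fold change -0.03, interval -0.15 to 0.08, adjusted p = 0.712), with overlapping groups. HSPBP1, a nucleotide exchange factor of HSP70, and HSPBAP1, a binding partner of HSPB1, had log2 fold changes of 0.08 and -0.30 and did not pass. HSPBAP1 passed as lower in 5 alternatives, such as with dim genes left out (adjusted p = 0.0266), which span adjusted p-values of 0.0153 to 0.0402. Of 16 further HSP90 co-chaperones 2 were higher and 5 lower, against 14.7% and 17.8% of all genes. CDC37L1, a relative of the kinase co-chaperone CDC37, rose by 0.45 (adjusted p = 0.000576). TOMM34, which hands mitochondrial precursors from HSP70 to HSP90, fell by 0.43 (adjusted p = 0.000122), and the ATPase RUVBL1 fell by 0.26 (adjusted p = 0.00394). Of 9 further HSP70 co-chaperones 2 were higher and 1 lower. STUB1, the ubiquitin ligase CHIP that marks clients of HSP70 and HSP90 for degradation, had 356, 367 and 407 in NFX1-91 shRNA arrays, against 877, 752 and 754 in control arrays (-1.04, SE 0.0777, adjusted p = 9.68e-06). Its signals in NFX1-91 shRNA arrays were all far below those in control arrays. BAG1, an exchange factor, rose by 0.30 (adjusted p = 0.00188) and ST13, or HIP, which slows client release, by 0.18 (adjusted p = 0.00122). The mean of its probe sets ended the call of ST13 (adjusted p = 0.945).

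Among other genes near the heat shock response 0 of 9 measured were higher and 2 lower, against 14.7% and 17.8% of all genes. The ubiquitin gene UBB fell by 0.13 (adjusted p = 0.00901). IER5, which promotes HSF1 activity, fell by 0.13 (adjusted p = 0.0386). Those 0 higher calls are from limma, and 0 were higher at an unadjusted p under 0.05 as well. Both falls ended under median centring (adjusted p = 0.0856 and 0.133), and that of IER5 also without NFX1-91 shRNA replicate 1 or 2 or control replicate 2 or 3 (0.0545 to 0.156). At the ribosome 1 of 4 folding factors was higher, NACA of the nascent chain complex, by 0.14 (adjusted p = 0.00202), a call that ended without a variance trend (the same fold, adjusted p = 0.095) and on another probe set, used when shared ones were omitted (0.29, adjusted p = 0.103). Of the 4 measured endoplasmic reticulum chaperones that were left out of the set, HSPA5 rose by 0.21 (adjusted p = 0.000896) and DNAJB9 by 0.51 (adjusted p = 0.000187, but 0.0611 with shared probe sets omitted), and DNAJC3 and DNAJC10 did not pass.

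Of the 61 members 25 had further probe sets, 35 in all, of which 3 were higher, 5 lower and 27 did not pass over probe sets. Over all probe sets of the array 25.7% were called. Among the 10 called members with further probe sets, a second call in the same direction was found for 4 (CCT2, DNAJC8, DNAJC16 and HSPA9), and 2 had another called the opposite way (DNAJA1 and HSPA13). HSPA4, which did not pass, had a dim probe set that fell, with 275, 252 and 229 in NFX1-91 shRNA arrays, against 302, 372 and 530 in control arrays (log2 fold change -0.61, adjusted p = 0.0317 over probe sets). Its 3 brighter probe sets had values of -0.03 to 0.09 and did not pass. The other 36 members were read by 1 probe set each.

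**Figure D4:**
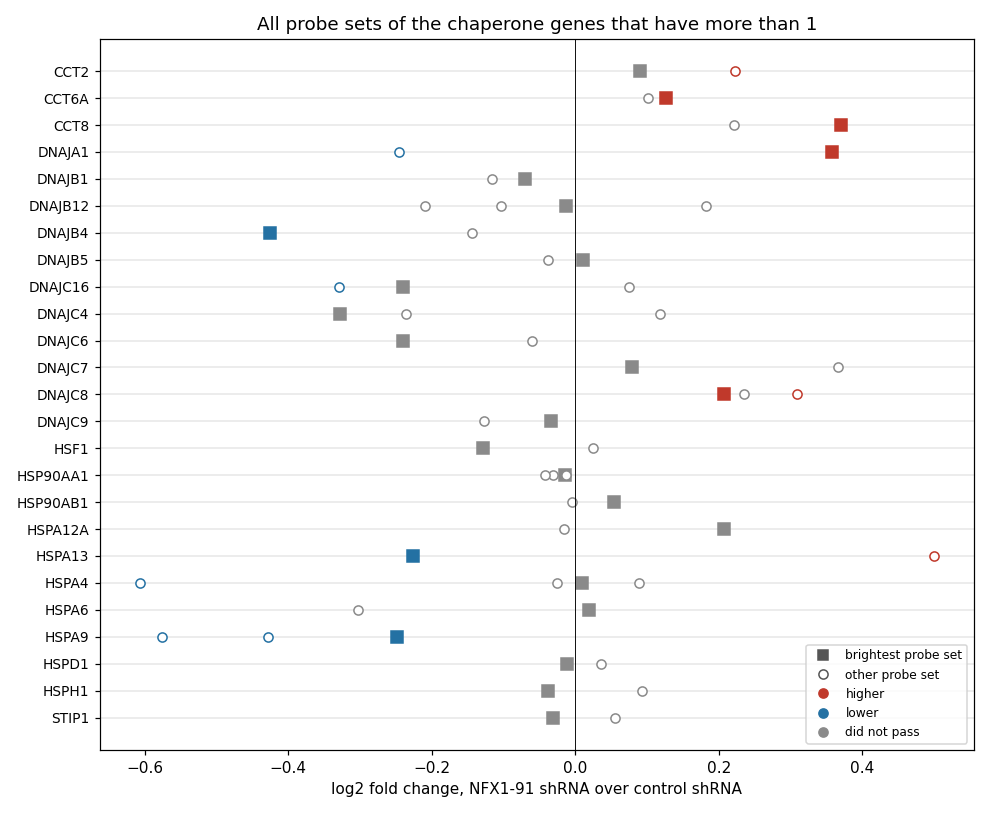
Log2 fold change (x axis) of every probe set of the 25 chaperone genes with more than 1 (y axis), NFX1-91 shRNA over control shRNA. Squares are the brightest probe sets and circles the others, coloured by the call over all probe sets, by which the brightest ones of CCT2, DNAJC16 and DNAJC4 did not pass. The probe sets of HSPA9 all lie at -0.25 or below, and those of DNAJA1 and HSPA13 lie on opposite sides of 0.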

How the data were processed

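Biotinylated cRNA made from total RNA by Affymetrix's protocol was measured on 6 arrays, per the labels' protocols. The deposited values for 22215 probe sets were taken as linear intensities, and each array's column sums to 1. The sources used here do not say how probes were summarised. Each array was multiplied to a mean of 500 and log2(signal + 16) was taken, with no other normalization. On each array 397 to 451 values repeat 1 low value, among members only in HSPB2, on 2 arrays. Probe sets were named by the platform annotation: 19064 had 1 gene, 1043 several and 2108 none listed. By gene identifier 19052 matched RefSeq (GRCh38.p14), with 0 symbols changed.

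The comparison used lmFit and trended eBayes of limma 3.58.1 (R 4.3.3), two-sided and without pairing, with Benjamini-Hochberg adjustment over 11963 genes. The fit was also run on simulated data with independent errors, which cannot show whether the arrays stand for separate cultures. Figures used Python 3.11.15 and matplotlib 3.10.9.

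Members, partner lists and the naming rule were chosen with earlier results of these data known. The rule gave array values for 12 measured core genes (such as HSF1, HSPD1 and STIP1) and the 8 largest rises and 8 largest falls called, and named up to 3 called genes per partner list. Array values of HSPA13, GRPEL1, STUB1, TBCB and of further probe sets were added after their values were seen.

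Alternatives were quantile normalization, median centring, a filter on dim genes, a robust prior, eBayes without the trend, offsets of 1 and 64 and none, averaged probe sets, shared (_s_at and _x_at) probe sets left out, array weights, a replicate block, each array left out, and a threshold of 0.01.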

Additional observations from a re-analysis of the deposited data

Results flagged for a closer look

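Probe sets annotated to several genes stood outside the comparison of genes, and 12 of them list a symbol of the chaperone families. Of these, 8 had a log2 fold change above 0. In NFX1-91 shRNA arrays 4 passed the test as higher and 4 as lower, so the calls favour neither direction. The 4 higher ones are given here because they passed, with adjusted p over probe sets from limma. The 4 lower ones follow under the other observations. The share of all probe sets called in either direction is given above, with the further probe sets of the members. A pair listing TMEM135 and DNAJB6 had log2 fold changes of 0.45 (adjusted p = 0.00459) and 0.60 (adjusted p = 0.00189). A pair listing HSPA8 with the small nucleolar RNAs SNORD14C and SNORD14D had 0.13 (adjusted p = 0.0224) and 0.16 (adjusted p = 0.00256), and another probe set with that annotation had 0.07 and did not pass (adjusted p = 0.0664). Which of the listed genes gave the signal was not tested.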

How the results depend on the processing

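The 12 higher and 10 lower members became 7 higher with shared probe sets left out, 16 lower with array weights and 6 lower at an adjusted p under 0.01. Leaving out 1 array at a time gave 10 to 13 higher and 6 to 10 lower members. The lower count was 6 without control replicate 3 and without NFX1-91 shRNA replicate 1 or 2. Other counts stayed within 1.5 times. Of the 22 called members 12 kept their call in each alternative fit that held them. Signs turned for DNAJA1 (-0.25) and HSPA4 (-0.61) with shared probe sets left out and for HSPA13 (0.10) by the mean of probe sets, and probe sets of these genes disagree. Another 56 of 1413 single-gene values changed sign without a call in either setting. Deviations of same-numbered arrays correlated at -0.03, 0.08 and -0.02, and those of differently numbered arrays at -0.06 to 0.07. So few values cannot show whether same-numbered arrays were handled together, and the labels give only replicate numbers. The replicate block called 1629 genes higher and 1969 lower over the whole array. With it, CCT2, DNAJC16, DNAJC4, HSPB1 and IER5 lost their calls (adjusted p = 0.0512, 0.0953, 0.0654, 0.0714 and 0.0669), and no other named gene changed its call. Median centring moved the calls over all genes to 1955 higher and 1874 lower. The filter on dim genes left 52 members. Signals near the offset limit the muscle HSPB genes and the size of the fold of DNAJC28. With an offset of 64 DNAJB2 also changed less than 1.5-fold.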

Other observations

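Of the other 8 probe sets with several annotated genes, 4 were lower in NFX1-91 shRNA arrays. The one listing HSPA1A and HSPA1B, the stress-inducible HSP70 genes, had 2486, 2540 and 2370 in NFX1-91 shRNA arrays, against 3018, 3379 and 3267 in control arrays (log2 fold change -0.38, adjusted p = 0.000618 over probe sets). The one listing HSPA1L as well had 1092, 1209 and 1051, against 1537, 2067 and 2084 in control arrays (-0.74, adjusted p = 0.00139). Another, dim one, listing HSPA1A and HSPA1B, had a value of 0.31 and did not pass (adjusted p = 0.111). In none of these 3 did the groups overlap, and the dim one lies on the other side of 0.

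The other pair that fell lists TCP1 and SNORA29, with log2 fold changes of -0.44 (adjusted p = 0.00128) and -0.33 (adjusted p = 0.00133). The brightest of the 3 probe sets with that annotation had 5886, 5555 and 5530 in NFX1-91 shRNA arrays, against 5552, 5389 and 5358 in control arrays, and did not pass (0.06, adjusted p = 0.289).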
